A study of Homo sapiens with 6 samples.

Results

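The transcripts of 8 very large chromatin cofactors were followed in human cells held early in mitosis: the corepressors SPEN and NCOR1, the histone methyltransferases SETD1A, MLL2 and MLL4, the histone acetyltransferases EP300 and CREBBP, and the chromatin remodeller EP400. Each was a row of the deposited gene table whose name equalled one of these symbols, and all 8 names were found among 37879 rows. Total RNA came from HEK293T cells, an established human line of embryonic kidney origin in which the large T antigen of SV40 is expressed. All cells were given nocodazole, a drug that blocks spindle assembly, at 50 ng/ml over 15 h, which holds them in prometaphase. The control group had received an empty vector (3 arrays) and the Stau1 group a plasmid for Stau155-FLAG, the major isoform of the RNA-binding protein Staufen1 with a FLAG tag (3 arrays). Per the study's methods the transfection was transient, so the cells of a culture need not carry the plasmid alike. The labels number the samples of a group but do not say that they were separate cultures, so SDs measure the spread between these samples. The SE printed with a log2 change comes from limma, which moderates the spread of a row towards that of other rows.

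SPEN was selected on its difference between Stau1 and control arrays, since its unadjusted p was one of the lowest. The others were chosen as cofactors with long transcripts, with earlier results of these same arrays known. Their differences between the groups are therefore a description. Where calls of the fit over all rows are counted among the 8, they come from the contrast that chose the members, and nothing is read from them. All 6 arrays had a similar signal, with a median intensity between 83.0 and 102.2 and between 12730 and 13469 rows detected per array (detection p under 0.05 against the negative control beads). STAU1 itself was at a log2 intensity of 11.32 ± 0.10 (SD, n = 3) on control arrays and 11.47 ± 0.06 (SD, n = 3) on Stau1 arrays, a change of 0.15 (SE 0.09). All 12 mitotic marker genes looked at were detected on all 6 arrays, which does not tell arrested from cycling cells. Of these, 8 were lower with Stau1, as were 6726 of the 13285 rows tested. In limma 2 of them were lower at an unadjusted p under 0.05, against 1.32% of all rows tested, with 0 past the adjusted threshold. The lowest were TOP2A at a log2 change of -0.41 (SE 0.15) and CENPF at -0.36 (SE 0.15). The summed normalized intensity of the 12 markers was 41371 to 41896 on control and 40314 to 42186 on Stau1 arrays, so the groups overlapped. Bright rows such as CDC20 weigh most in this sum, which says little about TOP2A or CENPF. The part of these markers in the differences below was not tested. Of 5 genes known for HEK293 cells, NEFL, NEFM and INA were detected on all 6 arrays, LHX1 on 4 and PAX2 on 1. Of 8 markers of blood, liver, endothelial, connective tissue, epithelial and heart muscle cells, 5 were detected on no array, MYH7 was detected on 1, and PECAM1 and COL1A1 were detected on all 6 at intensities of at most 159.4.

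Cofactors of this kind do not bind DNA with sequence specificity in most cases and are brought to genes by transcription factors. Corepressors recruit histone deacetylases, acetyltransferases add acetyl groups to histone tails at active promoters and enhancers, and methyltransferases of the MLL and SET1 family methylate lysine 4 of histone H3. During prometaphase chromosomes are condensed and most transcription is shut down, so much of the RNA present then was made earlier. In RNA from a whole culture, fewer cells with a transcript and less of it per cell cannot be told apart.

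Promoter sequence is shown for 3 of the 8 genes: SPEN, which had the largest difference between the groups; CREBBP, whose values followed those of SPEN most closely within the groups; and MLL2, whose row differed from the others in lying near background. The sequences are from RefSeq on GRCh38.p14 and each is a 300-base window, written 5′ to 3′, that begins upstream of the annotated start and ends shortly after it. SPEN is at chr1:15847457-15847756 (plus strand), the first of the 2 listed CREBBP starts at chr16:3880664-3880963 (minus strand), and MLL2, now named KMT2D, at chr12:49060745-49061044 (minus strand). Capitals mark GGGCGG on either strand, the core of the GC box known for binding SP1.
SPEN: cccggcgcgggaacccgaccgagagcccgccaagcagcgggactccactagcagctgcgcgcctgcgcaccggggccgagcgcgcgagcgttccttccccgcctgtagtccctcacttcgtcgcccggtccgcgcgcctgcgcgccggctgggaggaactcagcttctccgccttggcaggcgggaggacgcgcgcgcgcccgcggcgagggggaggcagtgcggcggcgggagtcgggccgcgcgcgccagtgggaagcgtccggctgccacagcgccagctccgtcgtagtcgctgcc
CREBBP: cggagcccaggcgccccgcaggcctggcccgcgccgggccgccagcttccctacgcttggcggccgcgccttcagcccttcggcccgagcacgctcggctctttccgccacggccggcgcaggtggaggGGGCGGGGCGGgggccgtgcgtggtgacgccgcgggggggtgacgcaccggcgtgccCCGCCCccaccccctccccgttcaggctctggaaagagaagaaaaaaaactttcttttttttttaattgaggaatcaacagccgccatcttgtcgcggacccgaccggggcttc
MLL2: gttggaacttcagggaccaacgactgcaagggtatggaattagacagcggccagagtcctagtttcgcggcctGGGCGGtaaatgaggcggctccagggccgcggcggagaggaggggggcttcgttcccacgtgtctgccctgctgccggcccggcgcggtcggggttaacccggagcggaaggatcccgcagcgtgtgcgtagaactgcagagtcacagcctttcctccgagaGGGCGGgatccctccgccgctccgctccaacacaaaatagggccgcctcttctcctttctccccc
The SPEN window held GGGCGG 0 times, the CREBBP window 3 times, one pair of them overlapping, and the MLL2 window 2 times, while 45.0% of the 35116 promoters in the table held it at least once. Both SPEN and CREBBP lay in GC-rich sequence, 77.0% for SPEN and 70.3% for CREBBP against a median of 58.7% over all promoters, and MLL2 was at 65.0%. The SPEN window held 50 CpG dinucleotides, the CREBBP window 36 and the MLL2 window 27, where the median promoter held 14. The other windows were 65.0% GC for SETD1A, 75.3% for EP300, 79.0% for EP400, 83.3% for MLL4 (now KMT2B), and 82.0% for the second CREBBP start. NCOR1 had a GC-rich start (72.7%) and a second one at 26.3%, which alone of the 10 windows held TATAAA (3 times, in 11.5% of all promoters). The YY1 core GCCATNTT (6.58% of all promoters) was present once in the first starts of CREBBP and NCOR1 and in MLL4. CCGGAA, the core bound by ETS factors, was present once each in EP400 and the first start of NCOR1 (17.2% of all promoters), and CCAAT once, in the second NCOR1 start (34.6%). Every motif was searched on both strands, and a match is a run of letters, not evidence of a bound site.

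With Stau1, 7 of the 8 rows had a higher mean and 1, MLL2, which lay near background, a lower one, with a median log2 change of 0.43. Rows detected on 3 or more of the 6 arrays were kept, 13285 in all, and 49.4% of these were higher, with a median change of -0.00214. In limma 0 of the 8 rows passed an adjusted p of 0.05, as did 0 (0%) of all kept rows, of which 496 had an unadjusted p under 0.05, 320 (2.41%) higher and 176 (1.32%) lower. The methods' t-test gave 462 rows at an unadjusted p under 0.05, 0 after adjustment, and 0 when a change of more than 2-fold was also asked for. In 4 rows (SPEN, SETD1A, EP300 and EP400) every Stau1 array lay above every control array, which 4.51% of kept rows did. All changes are differences of log2 intensity after background correction with an offset of 16 and quantile normalization. The offset shrinks the difference of a dim row, and levels are not compared between genes, since each probe has its own brightness. With the background inferred from all rows, including those that average several probes, the median of the 8 rows was 0.10.

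**Figure D1:**
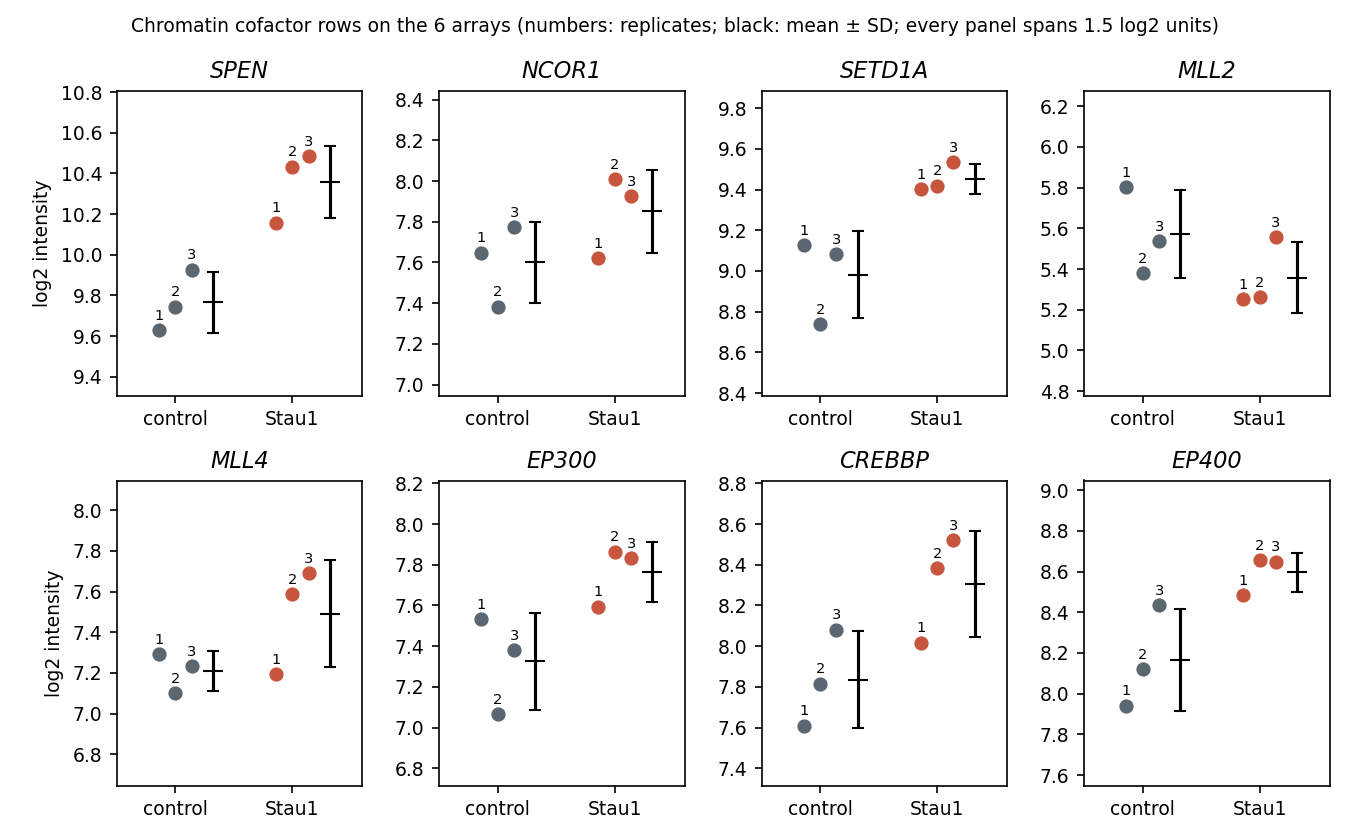
The log2 intensity (vertical axis) of each of the 8 rows on the 3 control and 3 Stau1 arrays, with replicate numbers above the points and black bars for the mean ± SD of 3 arrays. Every panel spans the same number of log2 units but starts at its own level. The Stau1 points lie above the control points without overlap for SPEN, SETD1A, EP300 and EP400, and MLL2 alone has the lower Stau1 mean.

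SPEN, on chromosome 1 (plus strand), codes for a very large repressor with RNA recognition motifs that recruits the NCOR corepressors and histone deacetylases and acts in Notch signalling and X inactivation. Its log2 intensity was 9.63, 9.74 and 9.93 on control replicates 1, 2 and 3, and 10.16, 10.43 and 10.48 on Stau1 replicates 1, 2 and 3. The lowest Stau1 array was 0.23 above the highest control. The means were 9.77 ± 0.15 (SD, n = 3) and 10.36 ± 0.18 (SD, n = 3), a log2 change of 0.59 (SE 0.12) or 1.51-fold, the 23rd highest of the 13285 kept rows. The SPEN signal was 8.36 to 17.3 times the background mean of its array and was averaged over 37 to 52 beads. The standard error over those beads, a technical error within 1 array, was at most 0.07 on the log2 scale.

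NCOR1, on chromosome 17 (minus strand), codes for the scaffold that links nuclear receptors without ligand to histone deacetylase HDAC3. Its log2 intensity was 7.65, 7.38 and 7.77 on control replicates 1, 2 and 3, and 7.62, 8.01 and 7.92 on Stau1 replicates 1, 2 and 3. The groups overlapped, because Stau1 replicate 1 lay below 2 of the controls. The means were 7.60 ± 0.20 (SD, n = 3) and 7.85 ± 0.20 (SD, n = 3), a log2 change of 0.25 (SE 0.16). This was the smallest difference among the 7 rows that were higher.

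Among the methyltransferases, SETD1A (chromosome 16, plus strand), a catalytic subunit of the SET1 complexes that carry out much of H3 lysine 4 methylation, had the clearest separation. It was at 9.13, 8.74 and 9.08 on control replicates 1, 2 and 3, and at 9.40, 9.42 and 9.54 on Stau1 replicates 1, 2 and 3. Stau1 arrays lay close together, and the lowest was 0.28 above the highest control, the widest gap of the 8 rows. The means were 8.98 ± 0.21 (SD, n = 3) and 9.45 ± 0.07 (SD, n = 3), a log2 change of 0.47 (SE 0.13) or 1.38-fold.

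MLL4, which the table places on chromosome 19 (plus strand) and which is therefore KMT2B, codes for a methyltransferase of CpG-rich promoters. The same older name has also been used for KMT2D, so the chromosome decided which gene each of the MLL rows was. MLL4 was at 7.29, 7.10 and 7.23 on control replicates 1, 2 and 3, and at 7.19, 7.59 and 7.69 on Stau1 replicates 1, 2 and 3. Only Stau1 replicates 2 and 3 stood above the controls, and Stau1 replicate 1 was within them. The means were 7.21 ± 0.10 (SD, n = 3) and 7.49 ± 0.26 (SD, n = 3), a log2 change of 0.28 (SE 0.16).

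MLL2, on chromosome 12 (minus strand) and so KMT2D, codes for the main enhancer H3 lysine 4 monomethyltransferase, best known as the gene mutated in Kabuki syndrome. It was at 5.80, 5.38 and 5.54 on control replicates 1, 2 and 3, and at 5.25, 5.26 and 5.56 on Stau1 replicates 1, 2 and 3. The groups overlapped, with Stau1 replicate 3 above controls 2 and 3. The means were 5.57 ± 0.21 (SD, n = 3) and 5.36 ± 0.17 (SD, n = 3), a log2 change of -0.22 (SE 0.15). MLL2 was barely above background: its signal was 1.22 to 1.42 times the background mean, and it was detected on 3 of the 6 arrays, control replicates 1 and 3 and Stau1 replicate 3. The standard error over its 30 to 36 beads was 0.24 to 0.54 on the log2 scale, which is larger than the difference between the groups on every array, so no direction for MLL2 is read from these arrays. The other 7 rows were detected on all 6 arrays.

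EP300 and CREBBP, a pair of closely related acetyltransferases that serve as coactivators for a wide range of transcription factors, were both higher with Stau1. EP300 (chromosome 22, plus strand) was at 7.53, 7.06 and 7.38 on control replicates 1, 2 and 3, and at 7.59, 7.86 and 7.83 on Stau1 replicates 1, 2 and 3. The groups were separated by only 0.06, between control replicate 1 and Stau1 replicate 1. The means were 7.33 ± 0.24 (SD, n = 3) and 7.76 ± 0.15 (SD, n = 3), a log2 change of 0.44 (SE 0.16) or 1.35-fold. CREBBP (chromosome 16, minus strand) was at 7.61, 7.82 and 8.08 on control replicates 1, 2 and 3, and at 8.02, 8.38 and 8.52 on Stau1 replicates 1, 2 and 3. Here Stau1 replicate 1 lay just below control replicate 3, and the groups overlapped by that pair. The means were 7.84 ± 0.24 (SD, n = 3) and 8.31 ± 0.26 (SD, n = 3), a log2 change of 0.47 (SE 0.17) or 1.39-fold. The CREBBP row had fractional bead numbers, so it was a mean of several probes, while each of the other 7 had whole bead numbers throughout.

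EP400, on chromosome 12 (plus strand), codes for the ATPase of the TIP60 complex, which exchanges histone H2A.Z into chromatin and acetylates histones H4 and H2A. It was at 7.94, 8.12 and 8.44 on control replicates 1, 2 and 3, and at 8.48, 8.66 and 8.65 on Stau1 replicates 1, 2 and 3. Control replicate 3 came within 0.05 of Stau1 replicate 1, but the groups did not overlap. The means were 8.17 ± 0.25 (SD, n = 3) and 8.60 ± 0.10 (SD, n = 3), a log2 change of 0.43 (SE 0.15) or 1.35-fold. EP400 has a near-copy, EP400NL, whose row was detected on none of the arrays, with intensities of 71.2 to 95.5.

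**Figure D2:**
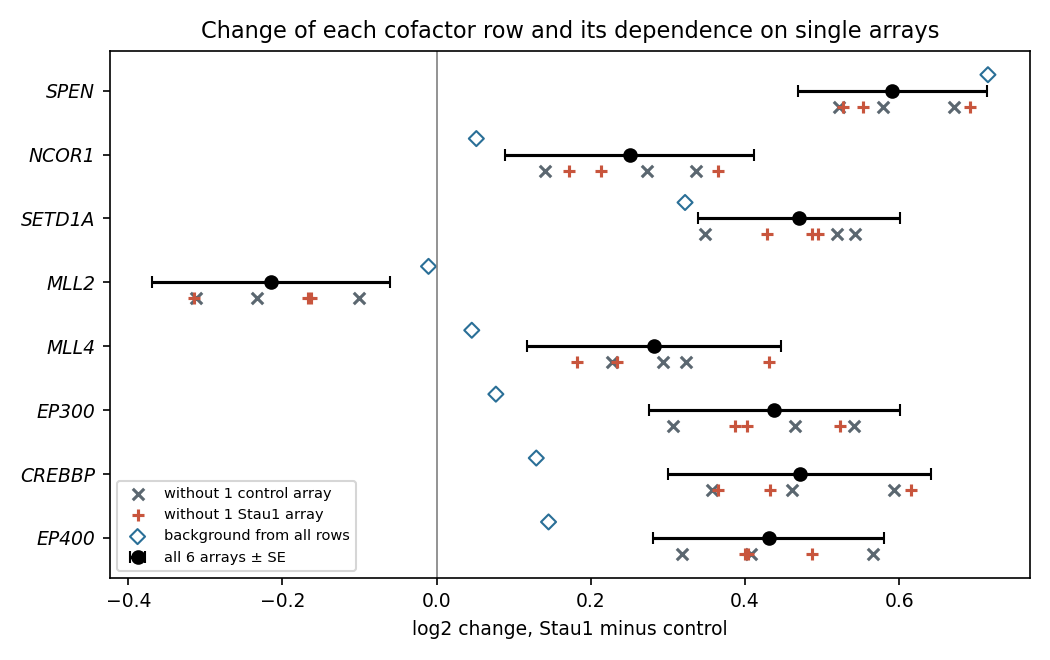
The log2 change, Stau1 minus control (horizontal axis), of each of the 8 rows: black points with bars show the value ± SE over all 6 arrays, crosses and plus signs the value with 1 control or 1 Stau1 array left out, and open diamonds the value with the background inferred from all rows. SPEN stayed between 0.52 and 0.69 with an array left out, and under the other background all but SPEN and SETD1A moved to 0.15 or less in size.

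Leaving out any 1 array kept the sign of all 8 differences. The change ran from 0.52 to 0.69 for SPEN, 0.35 to 0.54 for SETD1A, 0.31 to 0.54 for EP300, 0.36 to 0.62 for CREBBP and 0.32 to 0.57 for EP400. The ranges were wider against their size for NCOR1 (0.14 to 0.37), MLL4 (0.18 to 0.43) and MLL2 (-0.32 to -0.10). Without control replicate 3 limma called 1 of the 8 rows, SPEN at a change of 0.67, where 0.263% of kept rows were called in that direction. SPEN was selected on this contrast, so the call is no test of it. With one of the other 5 arrays removed, 0 of the 8 rows were called. In 3 of the 8 rows (NCOR1, CREBBP and EP400) control replicate 3 was nearer to the Stau1 mean than to the mean of control replicates 1 and 2, against 70.1% of all kept rows. The background mattered more than any array for the dimmer rows. With the background taken from all rows, SPEN was at 0.72 and SETD1A at 0.32. It was then 0.05 for NCOR1 and MLL4, 0.08 for EP300, 0.13 for CREBBP, 0.15 for EP400 and -0.01 for MLL2.

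The arrays also differed within each group, and the 8 rows shared part of that spread. Taking each row's deviation from its own mean over 6 arrays, the median deviation of the 8 rows was -0.08 on control replicate 1, -0.29 on control replicate 2 and -0.05 on control replicate 3. It was -0.0028 on Stau1 replicate 1, and 0.28 and 0.30 on Stau1 replicates 2 and 3, so that replicate 1 stood apart from the other Stau1 arrays and close to the controls. The same median over all kept rows stayed within 0.0028 of 0 on each array. Of the 8 rows, SPEN, CREBBP and EP400 were lowest on control replicate 1, and NCOR1, SETD1A, MLL4 and EP300 on control replicate 2. The highest value was on Stau1 replicate 3 for SPEN, SETD1A, MLL4 and CREBBP and on Stau1 replicate 2 for NCOR1, EP300 and EP400.

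After each group's own mean was subtracted, Pearson's r was taken for the 28 pairs of rows over the 6 arrays, which share their RNA extracts and their normalization. It ranged from -0.25 (MLL2 with EP400) to 0.99 (SPEN with CREBBP), with a median of 0.64, and 27 of the 28 pairs were above 0. SPEN, CREBBP and EP400 followed one another, with r of 0.87 for SPEN with EP400 and 0.88 for CREBBP with EP400. EP300 followed SETD1A (0.87) and NCOR1 (0.85) instead, and the pair of related acetyltransferases, EP300 and CREBBP, had an r of only 0.22. Across all kept rows the 5 that followed SPEN most closely were CLIC5 (r of 0.998), TNFAIP1 (0.995), CREBBP (0.995), FBXO8 (0.994) and ZFP36 (0.994), and 221 rows (1.66%) had an r over 0.9. CLIC5, TNFAIP1 and FBXO8 differed little between the groups, by log2 changes of 0.08, 0.04 and -0.02, while ZFP36 was at 0.25. CLIC5 was dim, with means of 5.16 on control and 5.24 on Stau1 arrays, so nothing is read from its row. Rows alike to SPEN within the groups thus had differences between the groups of unlike size.

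**Figure D3:**
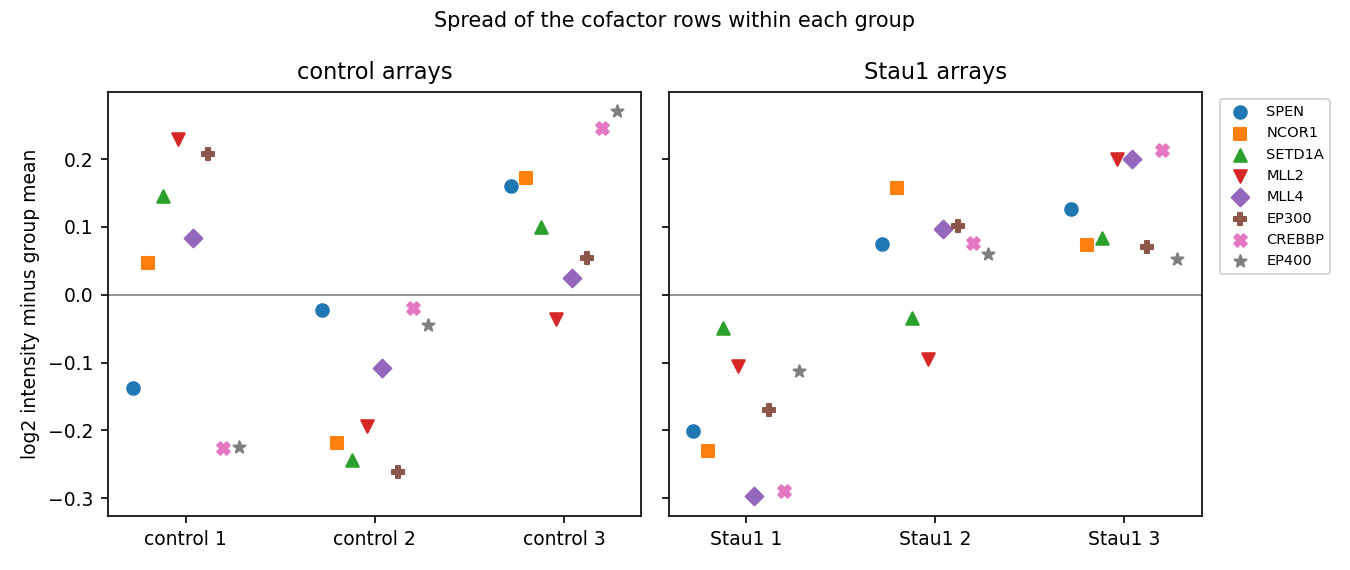
The log2 intensity minus its group mean (vertical axis) of each of the 8 rows, drawn as 1 symbol per gene, on the 3 control arrays (left) and the 3 Stau1 arrays (right). SPEN, CREBBP and EP400 are lowest on control replicate 1 and highest on control replicate 3, all 8 rows lie below their mean on control replicate 2, and all 8 lie below it on Stau1 replicate 1.

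The partners of the 8 proteins were then read from lists ordered by role, none of which had a row that passed an adjusted p of 0.05 in limma. Of the corepressor partners of SPEN and NCOR1, 21 of 24 rows were kept, 14 higher and 7 lower with Stau1. Their median log2 change was 0.05, or 0.13 with median scaling of the arrays, which moved the median of all kept rows to 0.07. At an unadjusted p under 0.05 there were 2 that were higher and 0 that were lower, against 2.41% and 1.32% of all kept rows. The core subunits of the NCOR complexes were at the low end, TBL1XR1 at -0.24 (SE 0.18) and the deacetylase HDAC3 at -0.18 (SE 0.09). In 3 rows of the list every Stau1 array lay above every control and in 1, HDAC3, below. Of the 13285 kept rows, 599 lay above and 452 below in this way.

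Of the partners and relatives of the methyltransferases, all 19 rows found were kept, 17 higher and 2 lower, with a median of 0.11 and 2 that were higher at an unadjusted p under 0.05 (2.41% of all kept rows). MLL (KMT2A), the founding member of the family, had a change of 0.47 (SE 0.21), with overlap. HCFC1, a large scaffold shared by SET1 and MLL complexes, had 0.37 (SE 0.08) with none. In 2 rows of the list every Stau1 array lay above every control and in 0 below. Of all kept rows 4.51% lay above in this way. The WDR5-associated subunit ASH2L, common to all of these complexes, was at -0.08 (SE 0.10), and C16ORF53 (PAGR1), a subunit of the MLL2 complex, at -0.01 (SE 0.10). The lowest values of this list thus lay near 0, within their errors. The median of the list was 0.03 with the background inferred from all rows and 0.18 with median scaling, which moved the median of all kept rows to 0.07.

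Among acetyltransferases and coactivators that work with EP300 and CREBBP, 20 of 23 rows were kept, 14 higher and 6 lower, with a median of 0.09 and 3 higher at an unadjusted p under 0.05 (2.41% of all kept rows). In 5 rows of the list every Stau1 array lay above every control and in 0 below. Of all kept rows 4.51% lay above in this way. MYST3 and MYST4, the paired acetyltransferases also known as KAT6A and KAT6B, were at 0.50 (SE 0.16) and 0.43 (SE 0.18), the former without overlap. MYST4 was about as dim as MLL2, with means of 5.25 on control and 5.68 on Stau1 arrays, and no direction is read from it. The median was 0.01 with the background inferred from all rows. CITED4 and CITED2, small proteins that bind EP300 and CREBBP, were both at -0.15 (SE 0.15 and 0.13). Partners of EP400 showed no common direction: of 21 rows 20 were kept, 9 higher and 11 lower, with a median of -0.0083. That median was 0.04 without control replicate 1 and 0.08 with median scaling, which moved the median of all kept rows to 0.07. SRCAP, the related H2A.Z-exchanging ATPase, was at 0.50 (SE 0.20) and EPC2, a scaffold of the TIP60 complex, at 0.49 (SE 0.17), both with overlap. These were the 2 rows of the list at an unadjusted p under 0.05, which 2.41% of all kept rows reached in that direction. Both were dim: SRCAP had means of 5.83 on control and 6.33 on Stau1 arrays, and EPC2 of 5.19 and 5.68. MLL2, near background, was at 5.57 and 5.36, so no direction is read from these 2 rows. The complex members JAZF1 and MEAF6 were at -0.34 (SE 0.16) and -0.30 (SE 0.18). JAZF1 was the 1 row of this list without overlap, with every Stau1 array below every control. That held for 452 of the 13285 kept rows.

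A wider list of other large chromatin proteins, such as remodellers, demethylases and bromodomain proteins, was also counted. Of 63 rows 46 were kept, and 38 of these (82.6%) were higher with Stau1 and 8 lower, with a median log2 change of 0.18 against -0.00214 over all kept rows. In 6 rows the Stau1 arrays lay above all controls and in 0 below, where 4.51% of kept rows lay above and 452 of the 13285 lay below. At an unadjusted p under 0.05 there were 7 higher and 0 lower, where 2.41% of all kept rows were higher and 1.32% lower. CHD7, the remodeller mutated in CHARGE syndrome, was at 0.44 (SE 0.13) without overlap and BRWD3, a bromodomain protein, at 0.44 (SE 0.18) with overlap. Like MLL2, BRWD3 was dim, with means of 5.58 on control and 6.01 on Stau1 arrays, and no direction is read from it. BRWD1, its relative, was at -0.26 (SE 0.15) and the demethylase KDM3B at -0.19 (SE 0.16).

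On single arrays the median deviation of the wider list was -0.16 and -0.13 on control replicates 1 and 2, but 0.06 on control replicate 3, 0.06 on Stau1 replicate 1, 0.13 on Stau1 replicate 2 and 0.05 on Stau1 replicate 3. Control replicate 3 was nearer to the Stau1 mean in 76.1% of its rows, close to the 70.1% of all kept rows. Without control replicate 1 the median change of the wider list was 0.10, and with the background inferred from all rows it was 0.03. Of the 275 transcripts past the study's enrichment cutoff for Stau1-bound RNAs in prometaphase cells, 0 were among the 8 genes and 0 on any of the partner lists. The 275 are a small share beside the 37879 rows of the gene table. What count sets of this size would hold was not worked out, so nothing about binding is read from the 0.

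**Figure D4:**
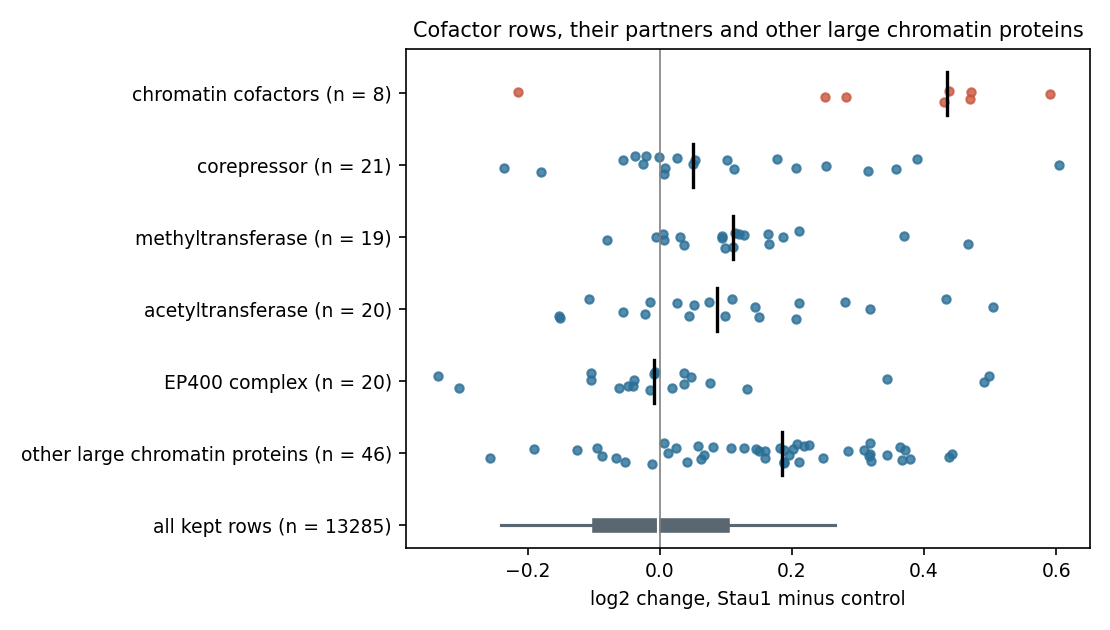
The log2 change, Stau1 minus control (horizontal axis), of each kept row of the 8 cofactors, of their partner lists and of other large chromatin proteins, with black lines at the list medians. The bottom bar spans the interquartile range of all 13285 kept rows, the thin line runs from their 5th to their 95th percentile, and 7 cofactor rows lie to the right of 0 with a median of 0.43, against 0.18 for the other large chromatin proteins.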

How the data were processed

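The study's authors hybridised biotin-labelled RNA to Illumina HumanWG-6 BeadChips and exported a gene table with no normalization from BeadStudio, per the file headers. The authors' later steps (background correction, variance stabilization, spline normalization) were stated for immunoprecipitated RNA and are not part of these values. Per gene and array the deposited file held a signal intensity, a detection p-value as deposited, a standard error over beads and a bead number; the 24 value columns were assigned to samples by name, with 0 left over. The labels' time in nocodazole is printed; the study's methods give a longer one.

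From the deposited intensities, log2 values were computed here with limma 3.58.1 in R 4.3.3: normexp background correction (offset 16), then quantile normalization, then log2. The background (means 74.6 to 92.7, SDs 15.2 to 18.2 per array) was inferred from the 30932 rows with whole bead numbers and a detection p at multiples of 1/759 (tolerance 0.002 of a step). Detection meant a p under 0.05, and the 13285 rows (35.1%) detected on 3 or more of 6 arrays were kept. A row detected only on Stau1 arrays, or only on control arrays, could thus be kept. The groups were compared with limma (lmFit, eBayes with a variance trend, Benjamini-Hochberg over all kept rows). The number of arrays limits the precision. Per array the median bead number was 40 to 41.

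The 8 genes and the lists (corepressor, methyltransferase, acetyltransferase, EP400 complex, other large chromatin proteins, and marker lists of mitotic cells, HEK293 cells and cells foreign to this line) were chosen with earlier results of these data known. Named were the 8 genes, STAU1, the 2 highest and 2 lowest rows of each partner list (the 2 highest of the corepressor list are not reported here), and the 5 rows whose group-centred values correlated best with those of SPEN. A t-test is given in the study's methods for immunoprecipitated RNA; for this comparison the study used a p and a 2-fold threshold without naming the test. The t-test was run two-sided with equal variances as an alternative. Symbols were updated through RefSeq (GRCh38.p14), which was used for names and promoters only, since the table gives no build. The fit was tested on simulated data. Figures were drawn with matplotlib 3.10.9 in Python 3.11.15. Alternatives were other backgrounds, offset, normalization, filters, variance models, array weights, a replicate block and each array left out.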

Additional observations from a re-analysis of the deposited data

How the results depend on the processing

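All 8 cofactor rows kept the sign of their difference under each alternative in which they were tested; a detection p under 0.01 on all arrays dropped MLL2 and CREBBP. With 1 array left out, between 0 and 39 rows were called, with 39 when control replicate 3 was the one removed. Medians then ran from 0.33 to 0.49 for the 8 rows, 0.04 to 0.08 for corepressors, 0.08 to 0.15 for methyltransferases, 0.06 to 0.15 for acetyltransferases, -0.0039 to 0.0446 for the EP400 complex (0.0446 without control replicate 1) and 0.10 (without control replicate 1) to 0.24 for other large chromatin proteins. With the background inferred from all rows, medians were 0.10 for the 8 rows, 0.0339 for methyltransferases, 0.0120 for acetyltransferases and 0.0272 for other large chromatin proteins. With median scaling, which moved the median of all kept rows to 0.07, they were 0.13 for corepressors, 0.18 for methyltransferases and 0.0797 for the EP400 complex. With array weights they were 0.17 for methyltransferases and 0.0329 for the EP400 complex. The count at an unadjusted p under 0.05 was 496 in the report and ran from 229 (median scaling) to 1565 (no filter) with all arrays, and from 238 (without Stau1 replicate 3) to 1686 (without control replicate 3) with 1 left out.

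The labels do not say whether same-numbered samples were prepared together. Deviations of same-numbered arrays correlated at 0.02, 0.26 and -0.14, which cannot settle it. With the replicate block 0 rows were called and the median of the 8 rows was 0.43. A count of change by protein length was not run, because no protein lengths were used here. MLL2 is at background level, and what the dim rows show depends on how the background is set.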
